A study of Mus musculus with 12 samples.

Results

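The genes of insulin signalling and glucose uptake are a set of 10 genes that cover the insulin signal, glucose transporters and a hexokinase. They are *Insr*, *Irs1*, *Pik3r1*, *Akt2*, *Tbc1d4*, *Tbc1d1*, *Slc2a4*, *Slc2a1*, *Slc2a3* and *Hk2*. Each was represented by its brightest probe set among those annotated with its symbol alone, and all 10 were found among the 19938 genes of the array. No filter on low signals was applied, so that all 10 were tested.

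In skeletal muscle, insulin binds its receptor, encoded by *Insr*, which phosphorylates the adaptor IRS1, encoded by *Irs1*. IRS1 recruits phosphatidylinositol 3-kinase, whose regulatory subunit is encoded by *Pik3r1*, and this activates the kinase AKT2. AKT2 phosphorylates the Rab GTPase-activating proteins AS160 (*Tbc1d4*) and TBC1D1, which in their unphosphorylated form hold GLUT4 (*Slc2a4*) in vesicles inside the fiber. Contraction acts on the same proteins through AMPK. GLUT1 (*Slc2a1*) and GLUT3 (*Slc2a3*) are transporters that do not depend on insulin, and hexokinase II (*Hk2*) traps the glucose that enters by phosphorylating it.

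Expression was read from 12 mouse Gene 1.0 ST arrays in 4 groups of 3, namely diaphragm and gastrocnemius muscle of wild type (WT) mice and of mice that lack *Cox6a2* (KO), the gene of a respiratory complex IV subunit found in striated muscle. All mice were males of the strain labelled C57Bl6, aged 10 to 12 weeks and kept on a regular diet. The deletion was present in the whole animal and not in muscle alone, and the controls were matched C57BL/6J mice obtained from a supplier. An effect of the deletion therefore cannot be told apart from other differences between the KO mice and these controls. The study asked whether loss of this subunit changes energy and glucose metabolism, and the arrays addressed how gene expression in the muscles differed. Values are log2 signals, so that a difference of 1 is a doubling, and a gene was called when its adjusted p in limma, corrected over all 19938 genes, was under 0.05. The labels call the arrays of a group biological replicates without naming the animals. The p-values therefore measure the spread between these samples.

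The mean log2 signal of *Cox6a2* itself was 6.89 ± 0.16 in KO diaphragm and 6.93 ± 0.23 in KO gastrocnemius, against 11.74 ± 0.096 in WT gastrocnemius and 11.89 ± 0.16 in the group labelled WT diaphragm (SD, n = 3 each), so that the genotype labels hold. The tissue label of the last group was not borne out by its markers. *Hoxa9* and *Hoxa10*, genes of hindlimb position, had mean log2 signals of 7.01 and 6.66 on the arrays labelled WT diaphragm and of 7.19 and 6.59 in WT gastrocnemius. In KO diaphragm they were 5.67 and 5.78. The summed linear signal of 6 genes of cervical position was 468 to 483 on the arrays labelled WT diaphragm. It was 417 to 469 in WT gastrocnemius and 664 to 723 in KO diaphragm. Markers of the mesothelium that covers the diaphragm were at the level of gastrocnemius on the arrays labelled WT diaphragm. The summed linear signal of its 10 markers was 419 to 439 on those arrays, against 435 to 491 in WT gastrocnemius and 2485 to 4283 in KO diaphragm. Across genes, their correlation was 0.989 to 0.992 with WT gastrocnemius and 0.963 to 0.975 with KO diaphragm. This group is therefore named throughout as the arrays labelled WT diaphragm, and in its comparison with KO diaphragm the genotype and the muscle cannot be told apart.

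KO diaphragm stood apart from the other 3 groups for *Tbc1d4*, *Tbc1d1* and *Slc2a3*. *Tbc1d4* was higher there, and *Tbc1d1* and *Slc2a3* were lower, each with all 3 KO diaphragm arrays outside the range of the other 9. How many of all genes lay outside the other 9 was not counted. Between 2 groups, KO diaphragm did not overlap the arrays labelled WT diaphragm for 43.1% of all genes and KO gastrocnemius for 44.8%. *Slc2a4*, *Slc2a1* and *Insr* differed by at most 0.28 on the log2 scale in any comparison of 2 groups, and none of these 3 genes was called. In gastrocnemius none of the 10 genes was called between KO and WT. The plot of the signal on each array shows these levels side by side.

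**Figure D1:**
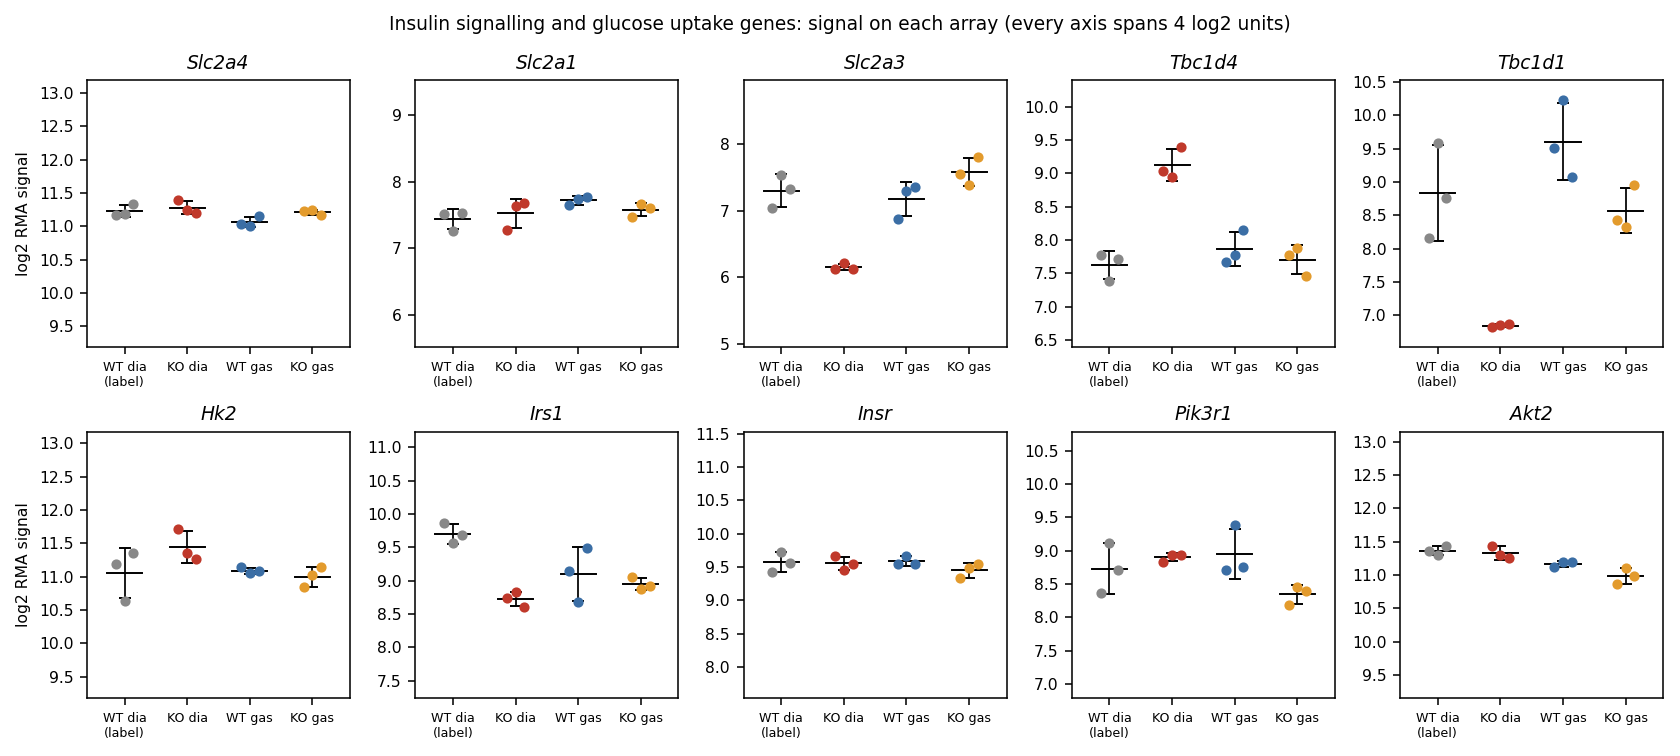
Log2 RMA signal (vertical axes, each spanning the same number of log2 units) of the 10 genes on the 3 arrays of each group (horizontal axes, groups by label; dia, diaphragm; gas, gastrocnemius). Points are arrays, horizontal lines are group means and bars are SD. The KO diaphragm arrays lie at 8.95 to 9.40 for *Tbc1d4*, above the other 9, and at 6.82 to 6.87 for *Tbc1d1* and 6.13 to 6.21 for *Slc2a3*, below the other 9.

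The first comparison set KO against WT in gastrocnemius, a muscle whose label and markers fit. limma called 0 of the 10 genes, against 0.592% of all genes. At an unadjusted p under 0.05 there were 3, *Slc2a3* on the higher side and *Tbc1d1* and *Pik3r1* on the lower. Of all 19938 genes 1617 were on the higher and 1662 on the lower side at that level. The methods' t-test, unpaired with pooled variance, gave 1 of the 10 at that level, where its share of all genes was not counted. After Benjamini-Hochberg adjustment it gave 0 of the 10 and 0.0% of all genes. The arrays of the groups did not overlap for 5 of the 10 genes, against 23.2% of all genes. The median log2 difference of the 10 was -0.14, and that of all genes was -0.01.

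The second comparison set KO diaphragm against the arrays labelled WT diaphragm, and 4 of the 10 genes were called, against 27.6% of all genes. One, *Tbc1d4*, was higher, where 16.3% of all genes were called higher. The other 3, *Tbc1d1*, *Slc2a3* and *Irs1*, were lower, where 11.2% of all genes were called lower. The median log2 difference was 0.01 over the 10 genes and -0.04 over all genes. The arrays of the groups did not overlap for 4 of the 10 genes, against 43.1% of all genes.

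The third comparison, KO diaphragm against KO gastrocnemius, does not use the arrays labelled WT diaphragm and compares muscles that both lack *Cox6a2*. Here 5 of the 10 genes were called, against 28.9% of all genes. *Tbc1d4*, *Pik3r1* and *Akt2* were higher in KO diaphragm, with 17.7% of all genes called higher, and *Tbc1d1* and *Slc2a3* were lower, with 11.2% called lower. The arrays did not overlap for 7 of the 10, against 44.8% of all genes. The median log2 difference was 0.08 over the 10 genes and 0.02 over all genes. After each array was centred on its median, 3 of the 10 were called, against 33.7% of all genes, since *Pik3r1* had an adjusted p of 0.094 and *Akt2* of 0.098 in limma.

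Between the arrays labelled WT diaphragm and WT gastrocnemius limma called 0 of the 10 genes, against 0.461% of all genes (0.296% higher and 0.166% lower). The arrays did not overlap for 4 of the 10 genes, against 16.8% of all genes. At an unadjusted p under 0.05 there were 4, *Irs1* and *Akt2* on the higher side and *Slc2a1* and *Tbc1d1* on the lower. Of all 19938 genes 1690 were on the higher and 887 on the lower side at that level. The methods' t-test gave 2 of the 10 at that level, where its share of all genes was not counted. After adjustment it gave 0 of the 10 and 0.0% of all genes. The interaction tested whether KO minus WT differed between the muscle labels. It called 3 of the 10 genes, *Tbc1d4* on the higher and *Slc2a3* and *Irs1* on the lower side, against 14.8% of all genes (8.76% higher and 6.07% lower). The comparisons share arrays. KO diaphragm is in the second, the third and the interaction, so that these are not independent of each other, and the interaction also carries the arrays labelled WT diaphragm.

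**Figure D2:**
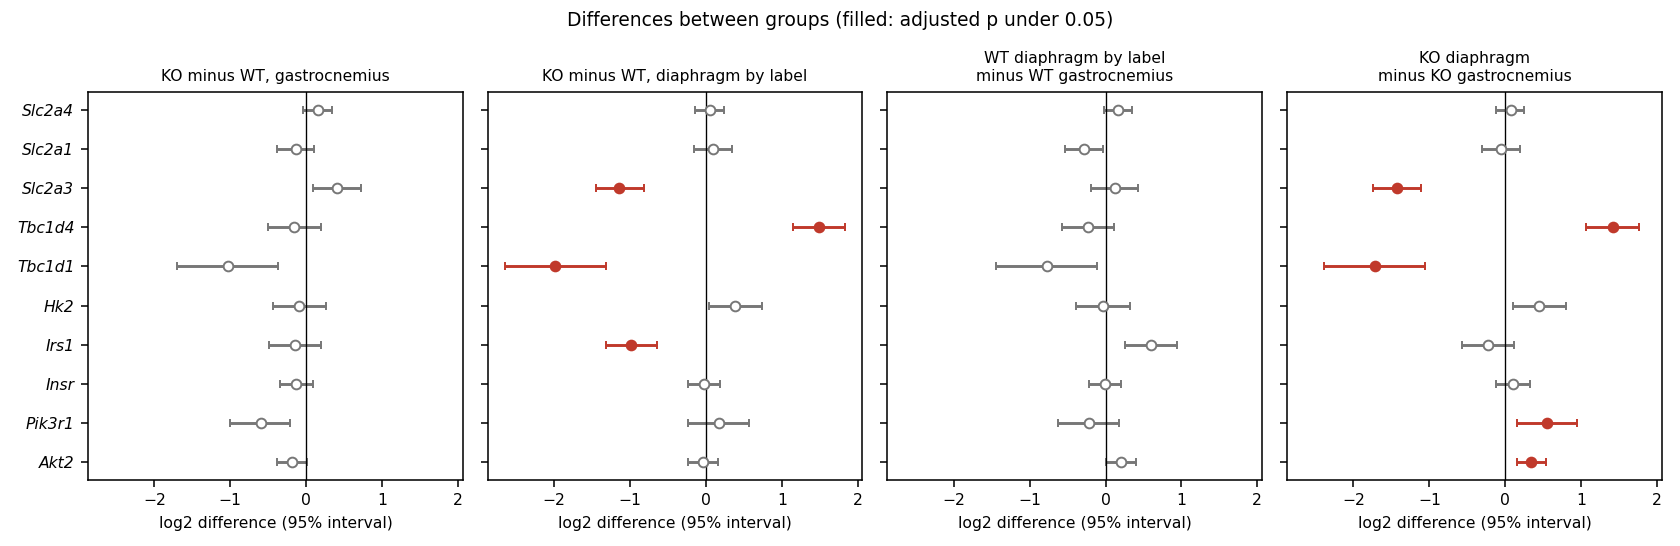
Log2 difference (horizontal axis) of the 10 genes in the 4 comparisons of 2 groups, with its 95% interval from limma. Filled points have an adjusted p under 0.05. *Tbc1d4*, *Tbc1d1* and *Slc2a3* are called in both panels that hold KO diaphragm, *Irs1* in the one against the arrays labelled WT diaphragm at -0.98, and *Pik3r1* and *Akt2* in the one against KO gastrocnemius at 0.55 and 0.34.

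Among the genes at the top of the pathway, *Irs1* was called in 1 comparison of 2 groups and *Insr* in none. *Insr*, the receptor, had log2 signals of 9.43, 9.73 and 9.56 on the arrays labelled WT diaphragm, 9.66, 9.46 and 9.54 in KO diaphragm, 9.54, 9.67 and 9.54 in WT gastrocnemius, and 9.33, 9.48 and 9.54 in KO gastrocnemius. All 4 groups overlapped. In gastrocnemius the 95% interval of its KO minus WT difference ran from -0.34 to 0.09, so that no change of the receptor mRNA was detectable within these bounds. For KO diaphragm against the arrays labelled WT diaphragm, where genotype and muscle cannot be told apart, the interval ran from -0.24 to 0.19.

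*Irs1*, the adaptor next to the receptor, had log2 signals of 9.86, 9.56 and 9.69 on the arrays labelled WT diaphragm and of 8.74, 8.83 and 8.61 in KO diaphragm. In WT gastrocnemius they were 9.14, 8.68 and 9.49, and in KO gastrocnemius 9.06, 8.88 and 8.92. The arrays labelled WT diaphragm were thus the highest group, above all the other 9 arrays, and the WT gastrocnemius arrays had the widest spread. KO diaphragm was lower than the arrays labelled WT diaphragm by 1.97-fold (log2 difference -0.98, SE 0.16, adjusted p = 0.00034, limma). Against KO gastrocnemius the log2 difference was -0.23 (SE 0.16, adjusted p = 0.31, limma), although the arrays did not overlap. Between the arrays labelled WT diaphragm and WT gastrocnemius it was 0.60 (adjusted p = 0.11, limma), and this passed the threshold without WT gastrocnemius replicate 3 (adjusted p = 0.042). The called difference of *Irs1* therefore lies between KO diaphragm and the group whose tissue label is in doubt. The interaction was -0.83 (SE 0.22, adjusted p = 0.021, limma), and it missed the threshold without replicate 1 of the arrays labelled WT diaphragm (adjusted p = 0.054) or without KO gastrocnemius replicate 1 (adjusted p = 0.056). A second, dimmer *Irs1* probe set gave -0.78 for KO diaphragm against the arrays labelled WT diaphragm and -0.42 against KO gastrocnemius. For KO minus WT in gastrocnemius it gave 0.10, where the brighter one gave -0.15, so that the probe sets differ in sign there.

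*Pik3r1* encodes the p85alpha regulatory subunit that binds phosphorylated IRS1. Its log2 signals were 8.36, 9.12 and 8.71 on the arrays labelled WT diaphragm, 8.83, 8.94 and 8.93 in KO diaphragm, 8.71, 9.38 and 8.76 in WT gastrocnemius and 8.19, 8.46 and 8.39 in KO gastrocnemius. KO gastrocnemius was the lowest group by mean, and its 3 arrays lay below all WT gastrocnemius and all KO diaphragm arrays. KO diaphragm was higher than KO gastrocnemius by 1.47-fold (log2 difference 0.55, SE 0.19, adjusted p = 0.037, limma). That call was lost when any 1 of the 6 arrays was left out, with adjusted p values of 0.053 to 0.13. In gastrocnemius the KO minus WT difference was -0.60 (SE 0.19, unadjusted p = 0.0057, adjusted p = 0.14, limma), which did not pass. The interaction was 0.77 (SE 0.26, adjusted p = 0.064, limma). It passed under quantile normalization (adjusted p = 0.048), among genes at or above the median signal (0.046), without replicate 2 of the arrays labelled WT diaphragm (0.017) and without WT gastrocnemius replicate 1 (0.047).

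*Akt2*, the kinase that carries the insulin signal to glucose transport in muscle, had log2 signals of 11.36, 11.30 and 11.44 on the arrays labelled WT diaphragm and 11.44, 11.30 and 11.25 in KO diaphragm. WT gastrocnemius had 11.12, 11.20 and 11.19, and KO gastrocnemius had 10.86, 11.11 and 10.98. Both groups labelled diaphragm lay above both groups labelled gastrocnemius without overlap, by small amounts. KO diaphragm was 1.27-fold higher than KO gastrocnemius (log2 difference 0.34, SE 0.092, adjusted p = 0.011, limma), and the second *Akt2* probe set gave 0.38. The call was lost without KO diaphragm replicate 1 (adjusted p = 0.053), without KO gastrocnemius replicate 1 (0.06) and in the methods' t-test (0.083). Between the arrays labelled WT diaphragm and WT gastrocnemius the difference was 0.20 (unadjusted p = 0.048, adjusted p = 0.38, limma). The KO minus WT difference was -0.19 in gastrocnemius (adjusted p = 0.33, limma). KO diaphragm differed from the arrays labelled WT diaphragm by -0.04 (adjusted p = 0.78, 95% interval -0.24 to 0.16, limma).

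Against the arrays labelled WT diaphragm the largest differences among the 10 genes were those of the paralogs *Tbc1d4* and *Tbc1d1*, which were called in opposite directions. Their promoters are shown because they are the members whose mRNA levels separated, together with that of *Irs1*, the other member called with *Tbc1d1* on the lower side for which a promoter was found. The sequences, from RefSeq on GRCm38.p6, hold 250 bases before and 50 after an annotated transcription start, written 5′ to 3′ along the transcribed strand. Capitals mark 2 motifs searched on both strands. One is the E-box CANNTG, a site class bound by myogenic factors. The other is the GC box GGGCGG, a site class bound by Sp1, which reads as its reverse complement where it lies on the opposite strand.
Tbc1d4, chr14:101609142-101609441, minus strand: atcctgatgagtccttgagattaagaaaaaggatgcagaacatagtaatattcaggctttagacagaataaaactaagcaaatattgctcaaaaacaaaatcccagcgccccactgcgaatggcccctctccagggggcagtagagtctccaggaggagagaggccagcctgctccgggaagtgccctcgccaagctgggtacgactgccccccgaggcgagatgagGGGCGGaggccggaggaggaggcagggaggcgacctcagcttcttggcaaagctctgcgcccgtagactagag
Tbc1d1, first start, chr5:64160010-64160309, plus strand: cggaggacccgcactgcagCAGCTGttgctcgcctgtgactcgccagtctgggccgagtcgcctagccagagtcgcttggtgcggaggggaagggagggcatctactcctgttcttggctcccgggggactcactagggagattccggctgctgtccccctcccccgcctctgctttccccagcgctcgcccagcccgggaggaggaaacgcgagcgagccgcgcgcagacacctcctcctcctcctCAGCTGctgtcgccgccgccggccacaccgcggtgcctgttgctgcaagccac
Tbc1d1, second start, chr5:64230107-64230406, plus strand: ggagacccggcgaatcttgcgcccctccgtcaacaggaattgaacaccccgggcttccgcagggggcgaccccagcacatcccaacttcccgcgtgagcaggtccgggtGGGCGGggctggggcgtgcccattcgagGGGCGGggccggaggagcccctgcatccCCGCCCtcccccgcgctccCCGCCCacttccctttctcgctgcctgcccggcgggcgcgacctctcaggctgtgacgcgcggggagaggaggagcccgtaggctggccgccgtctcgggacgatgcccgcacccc
Irs1, chr1:82291390-82291689, minus strand: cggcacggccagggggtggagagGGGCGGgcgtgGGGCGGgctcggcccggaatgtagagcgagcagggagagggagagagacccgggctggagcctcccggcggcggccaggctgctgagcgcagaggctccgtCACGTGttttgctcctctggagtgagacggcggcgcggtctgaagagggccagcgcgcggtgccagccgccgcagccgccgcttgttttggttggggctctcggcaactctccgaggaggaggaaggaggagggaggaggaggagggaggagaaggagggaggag

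The *Tbc1d4* window held 0 E-boxes and 1 GC box, with a GC content of 55.7%. The first *Tbc1d1* window held 2 E-boxes and 0 GC boxes at 69.3% GC, and the second held 0 E-boxes and 4 GC boxes at 74.0% GC. The *Irs1* window held 2 GC boxes and 1 E-box, of the form CACGTG. Of 32851 mouse promoters of the same length, 72.3% held an E-box of any form, 7.15% held CACGTG and 35.7% held a GC box, and the median GC content was 52.7%. TATAAA was in 13.6% of all promoters and in none of these 4 windows. These are counts of letters in a window and no measure of binding. Promoters were found for 7 of the 10 genes, with 12 windows in all; *Slc2a4*, *Slc2a3* and *Insr* had none here.

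*Tbc1d4* encodes AS160, the main Akt substrate on the way to GLUT4. Its log2 signals were 9.03, 8.95 and 9.40 in KO diaphragm, 7.78, 7.39 and 7.72 on the arrays labelled WT diaphragm, 7.67, 7.77 and 8.15 in WT gastrocnemius and 7.78, 7.88 and 7.46 in KO gastrocnemius. All 3 KO diaphragm arrays were higher than the other 9, which overlapped with each other. KO diaphragm was 2.82-fold above the arrays labelled WT diaphragm (log2 difference 1.49, SE 0.16, adjusted p = 1e-05, limma) and 2.67-fold above KO gastrocnemius (log2 difference 1.42, SE 0.16, adjusted p = 1.4e-05, limma). The difference between KO and WT in gastrocnemius was -0.16 (adjusted p = 0.65, 95% interval -0.50 to 0.19). The interaction was 1.65 (SE 0.23, adjusted p = 0.00023, limma).

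*Tbc1d1*, which serves the same step and is known as a substrate of AMPK as well as of Akt, went the other way. Its log2 signals were 6.82, 6.85 and 6.87 in KO diaphragm, 8.16, 9.59 and 8.76 on the arrays labelled WT diaphragm, 9.51, 10.23 and 9.08 in WT gastrocnemius and 8.43, 8.32 and 8.96 in KO gastrocnemius. KO diaphragm was lowest and varied least (SD 0.028, n = 3), whereas the arrays labelled WT diaphragm had an SD of 0.72 and WT gastrocnemius one of 0.58. KO diaphragm was 3.96-fold below the arrays labelled WT diaphragm (log2 difference -1.99, SE 0.31, adjusted p = 0.00027, limma) and 3.30-fold below KO gastrocnemius (log2 difference -1.72, SE 0.31, adjusted p = 0.00075, limma). The first of these had an adjusted p of 0.063 in the methods' t-test.

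In gastrocnemius the 3 KO arrays of *Tbc1d1* also lay below the 3 WT arrays, with a log2 difference of -1.03 (SE 0.31, 95% interval -1.70 to -0.37). This was the largest difference among the 10 genes in that muscle, but it did not pass over all genes (unadjusted p = 0.0049, adjusted p = 0.13, limma). It ranged from -1.30 to -0.72 when 1 array was left out. The arrays labelled WT diaphragm differed from WT gastrocnemius by -0.77 (unadjusted p = 0.026, adjusted p = 0.31, limma). The interaction was -0.95 (adjusted p = 0.18, limma), so that a different KO minus WT difference in the muscle labels was not shown for this gene. Without replicate 1 of the arrays labelled WT diaphragm it was -1.29 (adjusted p = 0.049).

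The opposite course of the paralogs was followed as the difference of the log2 signals, *Tbc1d4* minus *Tbc1d1*, on each array. Signals of different probe sets are not on one scale, so that only the change of this difference between groups can be read. It was 2.10 to 2.53 on the KO diaphragm arrays, -2.20 to -0.37 on the arrays labelled WT diaphragm, -2.46 to -0.93 in WT gastrocnemius and -1.50 to -0.44 in KO gastrocnemius. KO diaphragm was above every other array. The change was 3.48 (SE 0.55) against the arrays labelled WT diaphragm and 3.14 (SE 0.35) against KO gastrocnemius. Each had a two-sided p of 0.1 in an exact permutation test, the smallest that 3 arrays against 3 allow. *Tbc1d4* alone and *Tbc1d1* alone already separated these arrays in opposite directions. The separation of their difference, and with it this p, follows from that and is no further evidence. In gastrocnemius the change from WT to KO was 0.88 (SE 0.55, exact permutation p = 0.2), with overlapping arrays.

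**Figure D3:**
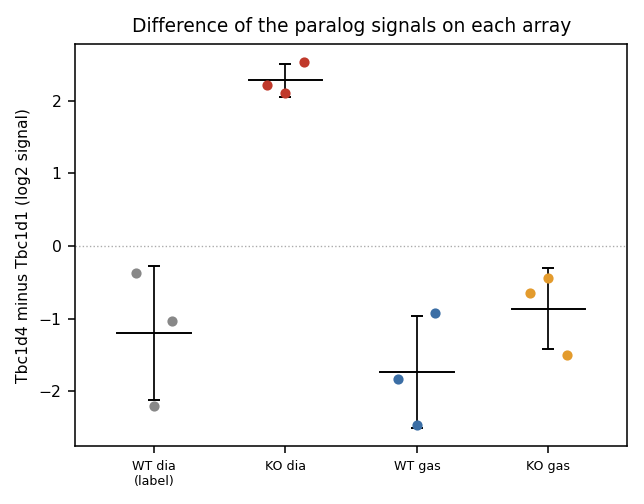
Difference of the log2 signals of *Tbc1d4* and *Tbc1d1* (vertical axis) on the 3 arrays of each group (horizontal axis, groups by label). Points are arrays, horizontal lines are means and bars are SD. The KO diaphragm arrays lie between 2.10 and 2.53 and the other 9 between -2.46 and -0.37.

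Of the glucose transporters, the insulin-regulated one was not called in any comparison, and GLUT3 was. *Slc2a4* had log2 signals of 11.17, 11.18 and 11.33 on the arrays labelled WT diaphragm, 11.39, 11.25 and 11.20 in KO diaphragm, 11.04, 11.01 and 11.15 in WT gastrocnemius and 11.23, 11.24 and 11.17 in KO gastrocnemius. In gastrocnemius all 3 KO arrays were above all 3 WT arrays, by 0.15 on average (SE 0.088, 95% interval -0.04 to 0.34, adjusted p = 0.42, limma). Against the arrays labelled WT diaphragm KO diaphragm differed by 0.05 (95% interval -0.14 to 0.24, adjusted p = 0.70, limma), which was -0.02 after median centring. The mRNA level says nothing of where the protein sat in the fiber.

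*Slc2a1*, the basal transporter GLUT1, had log2 signals of 7.52, 7.26 and 7.53 on the arrays labelled WT diaphragm, 7.28, 7.63 and 7.68 in KO diaphragm, 7.65, 7.74 and 7.77 in WT gastrocnemius and 7.47, 7.67 and 7.61 in KO gastrocnemius. The groups overlapped, except that the arrays labelled WT diaphragm were below WT gastrocnemius (log2 difference -0.28, unadjusted p = 0.03, adjusted p = 0.33, limma). The KO minus WT difference was -0.14 in gastrocnemius (95% interval -0.39 to 0.11). KO diaphragm differed from the arrays labelled WT diaphragm by 0.09 (95% interval -0.16 to 0.34), which was -0.02 under quantile normalization.

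*Slc2a3*, known best as the transporter of neurons and of some blood cells, had log2 signals of 6.13, 6.21 and 6.13 in KO diaphragm. The arrays labelled WT diaphragm had 7.04, 7.53 and 7.32, WT gastrocnemius had 6.88, 7.29 and 7.35, and KO gastrocnemius had 7.55, 7.39 and 7.80. The KO diaphragm arrays lay within 0.1 of each other and below the other 9. They were 2.20-fold below the arrays labelled WT diaphragm (log2 difference -1.14, SE 0.15, adjusted p = 4.9e-05, limma) and 2.68-fold below KO gastrocnemius (log2 difference -1.42, SE 0.15, adjusted p = 6.3e-06, limma). In gastrocnemius the KO arrays were above the WT arrays without overlap, by 0.41 (SE 0.15, unadjusted p = 0.014, adjusted p = 0.19, limma). The interaction was -1.54 (SE 0.21, adjusted p = 0.00019, limma).

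*Hk2*, the insulin-responsive hexokinase of muscle, had log2 signals of 11.72, 11.36 and 11.27 in KO diaphragm, 11.19, 10.63 and 11.35 on the arrays labelled WT diaphragm, 11.14, 11.05 and 11.08 in WT gastrocnemius and 10.84, 11.02 and 11.14 in KO gastrocnemius. KO diaphragm was above both gastrocnemius groups without overlap. Against KO gastrocnemius the log2 difference was 0.45 (SE 0.16, adjusted p = 0.053, limma). It passed when the comparison was fitted alone (0.031), without the arrays labelled WT diaphragm (0.017), among genes at or above the median signal (0.039) and without KO diaphragm replicate 3 (0.042). Against the arrays labelled WT diaphragm it was 0.39 (SE 0.16, adjusted p = 0.089, limma), and 0.54 without replicate 3 of those arrays (adjusted p = 0.034). In gastrocnemius it was -0.09 (95% interval -0.44 to 0.26).

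Beside these differences KO diaphragm also differed in its fibers and in other cells. Against the arrays labelled WT diaphragm 11 of 12 glycolytic fiber genes were lower and 12 of 12 oxidative fiber genes were higher. Of all genes 11.2% were called lower and 16.3% higher there, and 11.2% and 17.7% against KO gastrocnemius. *Myh4*, the IIB myosin, had log2 signals of 8.99, 9.15 and 8.74 in KO diaphragm and of 13.60, 13.50 and 13.59 on the arrays labelled WT diaphragm. The summed linear signal of the glycolytic list was 56249 to 57903 in KO diaphragm and 109685 to 118751 in the other groups, and that of the oxidative list was 54355 to 57349 against 21028 to 30584. Of the genes of other cells, 10 of 10 mesothelial, 5 of 6 adipocyte, 7 of 8 endothelial and 8 of 10 leukocyte markers were called higher, as was 1 of 3 red blood cell markers, and 0 of 3 peripheral nerve markers were called. Of 8 skeletal muscle markers 4 were called lower and 1 higher. Their summed linear signal was 55171 to 58051 in KO diaphragm and 63009 to 69408 in the other groups. This list shares *Tnnt3* and *Mylpf* with the glycolytic list, so that its counts and sums are not independent of fiber type. Against KO gastrocnemius the counts were 11 of 12 glycolytic genes lower, 11 of 12 oxidative genes higher, and 10 of 10, 5 of 6, 7 of 8 and 10 of 10 markers of the first 4 cell types higher, with 2 of 3 red blood cell markers higher and 3 of 8 skeletal muscle markers lower. The part of fiber type and of these cells in the differences of the 10 genes was not tested, and in whole muscle fewer cells of a type and less mRNA per cell cannot be told apart. In gastrocnemius no gene of any of these lists was called between KO and WT in limma. At an unadjusted p under 0.05, 3 of 10 leukocyte, 1 of 6 adipocyte and 1 of 8 skeletal muscle markers were on the lower side. On the higher side were 1 of 12 oxidative fiber genes, 1 of 8 endothelial and 1 of 8 skeletal muscle markers. Of all 19938 genes 1662 were on the lower and 1617 on the higher side at that level.

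For each of the 10 genes the most similar profile over the 12 arrays was sought, as the smallest root mean square difference after each gene was centred on its own mean. *Slc2a3* was followed most closely by *Slc16a10*, an amino acid transporter, at 0.132 on the log2 scale against a spread of 0.563 of *Slc2a3* itself, and then by *Stxbp4* at 0.151. *Tbc1d4* was closest to *F11r*, a tight junction protein, at 0.173 against a spread of 0.637, and to *Cidea*, a lipid droplet protein, at 0.187. *Cidea* had a mean log2 signal of 6.36 in KO diaphragm and of 4.73 to 5.10 in the other groups. *Tbc1d1*, with a spread of 1.09, was closest to *Eda2r* at 0.366 and *Acvr1b* at 0.417, and *Irs1* to *Gpr157* at 0.185 and *Rcan1*, an inhibitor of calcineurin, at 0.190 against a spread of 0.407. *Pik3r1* was closest to *Fzd4* and *Ffar3*, and *Hk2* to *Hint2* and *Cdk2ap2*. *Slc2a4*, *Slc2a1*, *Insr* and *Akt2* had spreads of 0.103 to 0.168, so that their nearest profiles, *Gstcd* and *Txnl4a*, *Ccdc113* and *Mcrs1*, *Olfr402* and *Fance*, and *2700081O15Rik* and *Zfp691*, are matches of nearly level genes. The 12 arrays share groups and these likenesses are a description.

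Of 89 other genes of the pathway listed by role, 78 were measured. In gastrocnemius limma called 0 of the 78 between KO and WT, beside 0.592% of all genes. At an unadjusted p under 0.05, 9 were on the higher and 8 on the lower side, beside 1617 and 1662 of all 19938 genes. The methods' t-test gave 9 unadjusted and 0 adjusted, and its unadjusted share of all genes was not counted. Against the arrays labelled WT diaphragm 15 were higher and 11 lower in KO diaphragm, which is 26 of 78 beside 27.6% of all genes. Against KO gastrocnemius 19 were higher and 8 lower, which is 27 of 78 beside 28.9% of all genes. The median log2 difference of the 78 was -0.01, 0.04 and 0.06 in these comparisons, and that of all genes was -0.01, -0.04 and 0.02. After median centring the split was 10 higher and 15 lower in the second, and 13 and 13 in the third. Over all genes the share of calls that were higher went from 59.3% to 41.0% and from 61.3% to 35.6% under that scaling, and to 49.6% and 49.7% under quantile normalization. Directions of small changes in KO diaphragm therefore depend on the scaling.

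Among the 13 measured receptors, ligands and adaptors, 5 were higher and 1 lower in KO diaphragm against the arrays labelled WT diaphragm. Of all genes 16.3% were called higher and 11.2% lower there. *Grb14*, an adaptor that inhibits the insulin receptor, had log2 signals of 9.40, 9.34 and 9.53 in KO diaphragm against 7.32, 7.38 and 7.48, 4.08-fold higher (log2 difference 2.03, SE 0.16, adjusted p = 6.7e-07, limma). WT gastrocnemius had 7.88, 7.08 and 7.24 and KO gastrocnemius 7.78, 7.91 and 7.60, so that KO diaphragm was above all the other 9 arrays. *Grb10*, the related inhibitory adaptor, was higher by 0.78, *Shc1*, an adaptor towards Ras, by 0.90, the growth factor gene *Igf2* by 0.72, and *Ptprf*, a receptor tyrosine phosphatase, by 0.73 (adjusted p of 0.0012 or lower for each, limma). Against KO gastrocnemius 6 of the 13 were higher and 0 lower, beside 17.7% and 11.2% of all genes. *Grb14* was at 1.66 there, *Ptprf* at 1.00 and *Igf2* at 0.78.

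Beside 16.3% of all genes, 2 of the 9 genes of phosphatidylinositol 3-kinase and the lipid phosphatases were called higher against the arrays labelled WT diaphragm. They were *Pik3cg*, the catalytic subunit prominent in leukocytes, at 0.79 (SE 0.19, adjusted p = 0.0057) and *Pik3ca*, the catalytic subunit that pairs with the *Pik3r1* product, at 0.32 (SE 0.11, adjusted p = 0.035, limma). *Pik3cg* had log2 signals of 5.96, 6.97 and 6.75 in KO diaphragm and 5.53 to 5.90 on the other 9 arrays. The leukocyte markers, of which 8 of 10 were called higher, had a summed linear signal of 2204 to 4290 in KO diaphragm and 821 to 1415 elsewhere. Their relation was not tested. Against KO gastrocnemius *Inppl1*, the lipid phosphatase SHIP2, was also higher, by 0.53 (adjusted p = 0.00066, limma), beside *Pik3cg* at 0.98 and *Pik3ca* at 0.35.

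Of 17 genes of Akt and its targets, 1 was higher and 5 were lower against the arrays labelled WT diaphragm, beside 16.3% and 11.2% of all genes. *Akt1* was higher by 0.32 (adjusted p = 0.018, limma), with 9.33, 9.41 and 9.26 in KO diaphragm against 9.10, 8.86 and 9.10. The glycogen synthase kinase genes *Gsk3a* and *Gsk3b* were lower by 0.66 and 0.49 on the log2 scale (adjusted p = 4.1e-05 and 0.0096, limma), and *Foxo4*, a transcription factor that Akt excludes from the nucleus, was lower by 0.38 (adjusted p = 0.025). *Tsc1* and *Phlpp1* were at -0.37 and -0.32 (adjusted p = 0.0073 and 0.036, limma). *Gsk3a* was at 9.64, 9.72 and 9.76 on the arrays labelled WT diaphragm, above the other 9 arrays, and it was the 1 gene of the 78 called between those arrays and WT gastrocnemius (log2 difference 0.46, adjusted p = 0.03, limma). That call was not made when any 1 of the 6 arrays was left out. Against KO gastrocnemius 4 of the 17 were higher and 4 lower, beside 17.7% and 11.2% of all genes. *Akt1* was at 0.66 there, *Rptor*, an mTORC1 subunit, at 0.47 and *Tsc1* at -0.47.

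The 18 genes of GLUT4 vesicle traffic held the lowest log2 difference of the 78, that of *Sort1*. It encodes sortilin, which helps to form GLUT4 storage vesicles. Its log2 signals were 7.17, 7.55 and 7.03 in KO diaphragm against 9.27, 9.20 and 9.06 on the arrays labelled WT diaphragm, 8.74, 8.89 and 8.97 in WT gastrocnemius and 9.10, 9.16 and 8.91 in KO gastrocnemius. The log2 difference was -1.93 (SE 0.13, adjusted p = 9.1e-08) against the first group and -1.80 (SE 0.13, adjusted p = 2e-07, limma) against KO gastrocnemius. *Exoc7*, an exocyst subunit for vesicle tethering, differed by -1.20 and -0.73 in these comparisons, and *Rab10*, a Rab that the AS160 protein acts on, by -0.66 and -0.67 (adjusted p of 0.0032 or lower for each, limma). *Lrp1*, a receptor found in GLUT4 vesicles, was higher by 0.61 and 0.74. In all, 6 of the 18 were higher and 4 lower against the arrays labelled WT diaphragm, beside 16.3% and 11.2% of all genes. Against KO gastrocnemius 5 were higher and 4 lower, beside 17.7% and 11.2% of all genes.

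Few genes of the remaining roles were called. Of all genes 27.6% were called against the arrays labelled WT diaphragm and 28.9% against KO gastrocnemius. Of 8 other hexose transporters 1 was called against the arrays labelled WT diaphragm, *Slc2a12* at -0.31 (adjusted p = 0.038, limma), and 0 against KO gastrocnemius. None of the 4 other hexokinases and first-step genes was called in any of the 5 comparisons in limma, and in these none reached an unadjusted p under 0.05. Of 9 regulators of the *Slc2a4* gene 1 was called in each comparison of 2 groups with KO diaphragm, and 0 in the interaction. The 1 called was *Ppargc1a*, which encodes the coactivator PGC-1alpha. Its log2 signals were 10.57, 9.98 and 9.46 in KO diaphragm, 9.62, 8.66 and 8.40 on the arrays labelled WT diaphragm, 8.04, 8.01 and 7.94 in WT gastrocnemius and 8.29, 8.98 and 8.73 in KO gastrocnemius. KO diaphragm was 2.52-fold above KO gastrocnemius (log2 difference 1.33, SE 0.29, adjusted p = 0.0032, limma) and 2.16-fold above the arrays labelled WT diaphragm with overlap (log2 difference 1.11, adjusted p = 0.011). In gastrocnemius all 3 KO arrays were above all 3 WT arrays, by 0.67 (SE 0.29, adjusted p = 0.27, limma). The arrays labelled WT diaphragm also lay above all 3 WT gastrocnemius arrays, and no regulator was called between those groups.

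**Figure D4:**
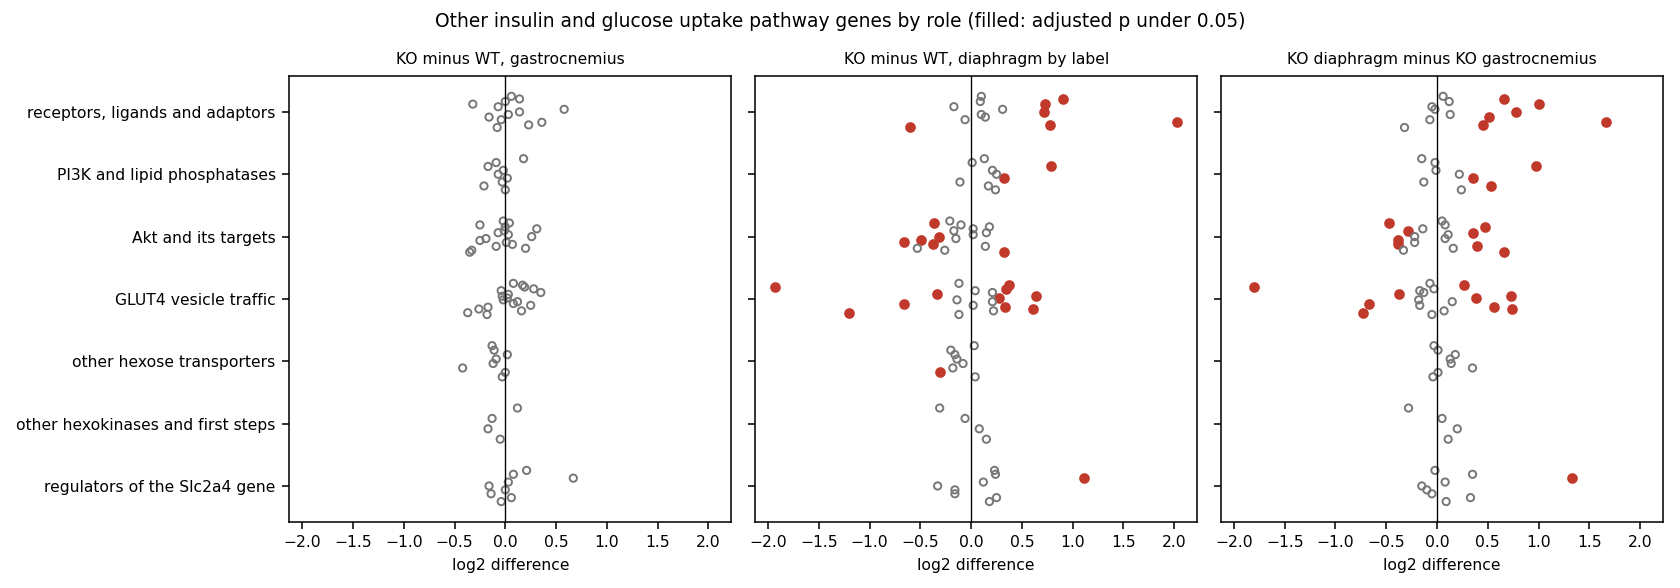
Log2 difference (horizontal axis) of the 78 other pathway genes, grouped by role (vertical axis), in 3 comparisons. Filled points have an adjusted p under 0.05. No point is filled in gastrocnemius, and *Grb14* at 2.03 and *Sort1* at -1.93 are the extremes of the middle panel.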

How the data were processed

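Diaphragm and gastrocnemius of WT and *Cox6a2*-deficient mice were hybridised to 12 mouse Gene 1.0 ST arrays, 3 per group. The deposited values are log2 signals that the authors obtained with RMA sketch in Affymetrix Expression Console (version not given in the sources used here), which corrects background, normalizes between arrays and summarises probes. They ranged from 1.65 to 14.4. No pair of arrays was identical. Arrays hold no read depth, and their number limits the precision.

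Of 35556 probe sets, 21789 had 1 gene symbol in the platform annotation, 1621 had several and 12146 were not listed. Only those with 1 symbol were used, with the highest mean signal kept for the 999 genes that had more than 1. The 19938 genes were fitted in R 4.3.3 with limma 3.58.1 (lmFit, eBayes) in 1 model of 4 group means without a covariate (8 residual and 6.18 prior degrees of freedom, median SD 0.138). P-values were adjusted by Benjamini-Hochberg over all genes. Single values were compared by two-sided exact permutation. In a test on simulated data (the gastrocnemius comparison, 19938 genes), the fit recovered 95 of 100 genes with a log2 change of 1 and 49 of 100 with one of 0.5, and made 9 false calls. The simulated noise was independent and normal, with the same SD for a gene in every group. The spread of *Tbc1d1* differed between groups, so that these shares give no power for the 10 genes.

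The 10 genes, the pathway lists and the marker lists were chosen with earlier results of these data known. Named genes were the 10 members, *Cox6a2*, up to 3 called genes per role and comparison with the largest difference and no overlap of arrays (no overlap condition for the interaction), the first 2 measured markers of each list, of which those of hindlimb position and *Myh4* are printed, and the 2 nearest profiles of each member. *Ppargc1a* against the arrays labelled WT diaphragm, where its arrays overlap, and *Ptprf*, *Igf2*, *Akt1*, *Tsc1*, *Phlpp1* and *Lrp1* in that comparison were named there through another comparison. Groups share replicate numbers. Neither labels nor methods say that they pair samples, and deviations from the group means correlated at -0.096 to 0.161 between arrays of the same number, so that no block was used. Promoter windows came from RefSeq (GRCm38.p6). Alternatives were the replicate block, each comparison alone, omission of the arrays labelled WT diaphragm, a robust eBayes fit with a trend, quantile normalization, centring each array on its median, the methods' t-test, a filter that kept genes whose signal reached the median, averaging all probe sets of a gene, log2 ratios of mean linear signals and leaving out each array. Of these, the separate fits, the omission of arrays, the trend fit and the t-test were chosen after seeing the data where they concern the pathway counts.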

Additional observations from a re-analysis of the deposited data

Results flagged for a closer look

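The genotype difference (KO minus WT) differed between the muscle labels by the interaction term in limma for 3 of the 10 genes and 16 of the 78 other pathway genes, beside 14.8% of all genes. The interaction rests on the arrays labelled WT diaphragm, whose hindlimb position and mesothelium genes were at the level of gastrocnemius, so that a difference of genotype effects and a difference of muscles cannot be told apart. Of the 10 genes, *Tbc1d4* had a log2 interaction of 1.65 (adjusted p = 0.00023), *Slc2a3* of -1.54 (adjusted p = 0.00019) and *Irs1* of -0.83 (adjusted p = 0.021).

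Among receptors, ligands and adaptors the interaction was 1.67 for *Grb14*, 1.05 for *Ptprf*, 0.76 for *Shc1*, 0.58 for *Igf2* and 0.54 for *Grb10*. It was 0.96 for *Pik3cg*. Among Akt and its targets it was 0.67 for *Akt1*, -0.68 for *Gsk3a*, -0.58 for *Phlpp1* and -0.41 for *Tsc1*. In GLUT4 vesicle traffic it was -2.12 for *Sort1*, -0.82 for *Exoc7*, -0.74 for *Rab10* and 0.87 for *Lrp1*. The other 2 of the 16, *Rab8a* at 0.67 and *Myo1c* at 0.50, were named after their values were seen. All of these had an adjusted p under 0.05 over all genes. The KO minus WT differences in the muscle labels were of opposite sign for 2 of the 3 members and for 11 of the 16 pathway genes. The interaction is the gap between these differences, so that choosing genes by it favours opposite signs. The share of opposite signs among all genes with a called interaction was not counted. Some of the gastrocnemius differences were small, at 0.01 for *Gsk3a*, -0.03 for *Rab8a* and 0.04 for *Tsc1*. In gastrocnemius none of the differences of the genes with opposite signs was called, and they lay between 0.41 for *Slc2a3* and -0.35 for *Akt1* (adjusted p = 0.19 and 0.094, limma).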

How the results depend on the processing

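The calls of *Tbc1d4* and *Slc2a3* in both comparisons with KO diaphragm and in the interaction held under every alternative with an adjusted p. So did those of *Irs1* and *Tbc1d1* against the arrays labelled WT diaphragm, except *Tbc1d1* in the methods' t-test (adjusted p = 0.063). Ratios of mean linear signals give no p, and the separate fits and the t-test were not run for the interaction. Median centring moved the median log2 difference of all genes from 0.02 to -0.11 in KO diaphragm against KO gastrocnemius and from 0.00 to -0.13 in the interaction, and there 3 of the 10 genes instead of 5 were called in the former. It turned *Slc2a4* to -0.02 against the arrays labelled WT diaphragm and to -0.06 against KO gastrocnemius, and *Insr* to -0.03 against KO gastrocnemius and -0.02 in the interaction. Quantile normalization turned *Slc2a1* to -0.02 against the arrays labelled WT diaphragm. Of the 78 pathway genes 1 was called in gastrocnemius when that comparison was fitted alone, beside 0.346% of all genes. Against the arrays labelled WT diaphragm 11 instead of 26 were called in the methods' t-test. Between those arrays and WT gastrocnemius it was 0 instead of 1 when fitted alone, under quantile normalization and in the t-test. Of all genes 0.226%, 0.401% and 0.0% were called there in these settings. Over all genes the t-test called 9.98% against the arrays labelled WT diaphragm, where limma called 27.6%, so that calls fell over all genes as well. The causes were not tested.

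The replicate number was also used as a block, the pairing that the numbers do not establish. The calls among the 10 genes were then 0 in gastrocnemius, 4 against the arrays labelled WT diaphragm and 0 between those and WT gastrocnemius. They were 5 in KO diaphragm against KO gastrocnemius and 4 in the interaction, where *Pik3r1* (0.77) had an adjusted p of 0.015 in limma. Of all genes 0.466%, 27.0%, 0.316%, 28.0% and 14.4% were called with the block, in the same order. The block left the other calls among the 10 genes as they were.

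When 1 array was left out, the calls among the 10 genes ranged from 0 to 0 in gastrocnemius, 4 to 5 against the arrays labelled WT diaphragm, 0 to 1 between those and WT gastrocnemius, 3 to 5 in KO diaphragm against KO gastrocnemius and 2 to 4 in the interaction, and those among the pathway genes from 0 to 0, 18 to 25, 0 to 0, 21 to 25 and 13 to 16. The share of all genes called ranged from 0.16% to 0.406%, 21.6% to 25.9%, 0.196% to 0.421%, 22.9% to 25.9% and 11.8% to 15.1% in the same order. The *Tbc1d4* minus *Tbc1d1* change ranged from 0.52 to 1.28, 2.98 to 3.89, 0.12 to 1.04 and 2.82 to 3.35 in the comparisons of 2 groups in that order. Differences that were not called and changed sign were *Irs1* in gastrocnemius (-0.36 to 0.04), *Pik3r1* (-0.02 to 0.36), *Insr* (-0.10 to 0.06) and *Slc2a4* (0.00 to 0.10) against the arrays labelled WT diaphragm, *Insr* (-0.09 to 0.07), *Hk2* (-0.18 to 0.18) and *Slc2a3* (-0.02 to 0.25) between those and WT gastrocnemius, and *Slc2a1* in KO diaphragm against KO gastrocnemius (-0.12 to 0.08).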
